A study of Mus musculus with 8 samples.

Results

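The genes described here encode the protein components of the cytosolic ribosome. They were taken by symbol from a table of gene counts: Rpl or Rps followed by a number, with Rplp0, Rplp1, Rplp2 and Rpsa, without pseudogene rows and without the kinases of ribosomal protein S6. Of 25230 rows, 85 matched, and 82 of these had a mean of at least 10 counts over the 8 libraries. Rpl26, Rpl30 and Rpl10l fell below that minimum. The 82 members were 41 genes of the large subunit, 31 of the small subunit, 3 of the P stalk and 7 paralogs, meaning related copies of a ribosomal protein gene such as Rpl22l1.

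The cells were intraepithelial lymphocytes (IELs), T cells that reside within the lining of the gut, from C57BL/6J mice. Every animal, controls included, had received 35 µg of anti-CD3 antibody, which triggers the T cell receptor complex, by injection into the peritoneum. The control group (PBS, 4 mice) received anti-CD3 with PBS. The other group (Ex4, 4 mice) received anti-CD3 with exendin-4 at 10 nmol/kg, a peptide agonist of the GLP-1 receptor. Cells were collected 3 hours after injection by Percoll separation and sorting for CD45, a marker of all leukocytes, so the sort itself did not select T cells. No mice without anti-CD3 were analysed here, and the labels state no age, sex, litter or batch.

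A ribosome joins a small subunit, which reads the mRNA, to a large subunit, which forms the peptide bond, and most of their proteins are present in a single copy. Most mRNAs of ribosomal proteins begin with a tract of pyrimidines at the cap, the terminal oligopyrimidine (TOP) motif, through which mTORC1 and the RNA-binding protein LARP1 control their translation and stability. Resting T cells hold few ribosomes, and activation through the receptor is known to raise ribosome production over the following hours and days.

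The start of these genes is shown first because the TOP motif is the sequence feature the family is known for. In promoter sequences of RefSeq on GRCm38.p6, 62 of the 82 members were matched. The longest unbroken run of C and T on the strand of the gene was searched within 25 bases on each side of the start that RefSeq annotates. A run that reached the edge of this stretch was counted to its end, and for a gene with several starts the longest run was taken. Each window below has 30 bases, written 5′ to 3′, with the run in capitals.

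Rpl13a (chr7:45128724-45128753, minus strand): tgcgacaagaCCTCCTCCTTTCCCaggcgg

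Rpl11 (chr4:136053361-136053390, minus strand): gggccggaagTCTCCCTCTCTCTTCCTgtt

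Rps6 (chr4:86857349-86857378, minus strand): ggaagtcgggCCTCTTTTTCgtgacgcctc

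Rplp2 (chr7:141447636-141447665, plus strand): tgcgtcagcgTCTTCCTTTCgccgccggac

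Rpl38 (chr11:114668568-114668597, plus strand): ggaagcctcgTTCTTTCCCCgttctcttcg

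Rpl22l1 (chr3:28805499-28805528, plus strand): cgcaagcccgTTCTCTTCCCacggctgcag

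Rpl39 (chrX:37085224-37085253, minus strand): gagtcatccaTCCCCCCCTaagctccgcct

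Rpl22 (chr4:152324416-152324445, plus strand): atcagcgctgCTTCTggaatgttccagctc

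Runs of at least 8 pyrimidines were present in 37 of the 62 matched members (59.7%), against 26.8% of 18651 genes with a promoter sequence. Runs of at least 10 were present in 29 members (46.8%), against 13.8% of genes. The median longest run was 9 bases in the members and 6 over all genes. Rpl13a, Rpl11, Rps6, Rplp2, Rpl38 and Rpl22l1 stand for members with runs of 10 to 17 bases, and Rpl22, with a run of 5, for those with a short one. The Rpl22 window lies upstream of the gene's span in GENCODE M21, which starts at 152325742, so it may not show the start in use. A run is a match of letters in this window and does not place the transcription start.

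Total counts were 13386889 to 31843413 per library, and 14691 genes with sufficient counts were tested. Levels are in CPM, counts relative to the total of a library after scaling for its composition. Of 15 IEL and T cell markers 14 were analysed, all detected, with summed levels of 66930 to 100100 CPM in PBS and 92700 to 109300 CPM in Ex4. Epithelial markers summed to 659.9 to 1498 CPM in PBS and 339.9 to 778.8 CPM in Ex4, with a log2 fold change below 0 in 18 of 19 tested. B and plasma cell markers summed to 1548 to 2133 CPM in PBS and 823.1 to 3049 CPM in Ex4, with the highest value in Ex4 3 and a log2 fold change below 0 in 8 of 9 tested. Macrophage, monocyte and dendritic cell markers summed to 128.1 to 239.3 and 126.4 to 207.9 CPM, with 5 of 10 below 0. Neutrophil markers summed to 3.40 to 32.9 and 14.1 to 43.4 CPM, lowest in PBS 2, with 6 of 6 above 0. Stromal, endothelial and red cell markers summed to 54.3 to 94.8 and 44.2 to 60.1 CPM, with Hba-a1 and Hbb-bs at 0. The part of these cells in the values of the ribosomal protein genes was not tested. In bulk RNA, fewer cells of a type and less RNA per cell cannot be told apart.

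Ribosomal protein genes together took 2.57%, 2.64%, 3.33% and 3.45% of all gene counts in PBS 1 to 4. In Ex4 1 to 4 they took 3.00%, 3.21%, 3.31% and 3.53%. PBS 1 and PBS 2 were lowest, while PBS 3 and PBS 4 lay among the Ex4 libraries, so the groups overlapped. The means were 3.00% ± 0.46 (SD, n = 4) in PBS and 3.26% ± 0.22 (SD, n = 4) in Ex4, and the difference of 0.266 percentage points was smaller than the SD within PBS. Without PBS 1 it was 0.123, without PBS 2 0.147, without Ex4 4 0.176 and without PBS 4 0.417.

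**Figure D1:**
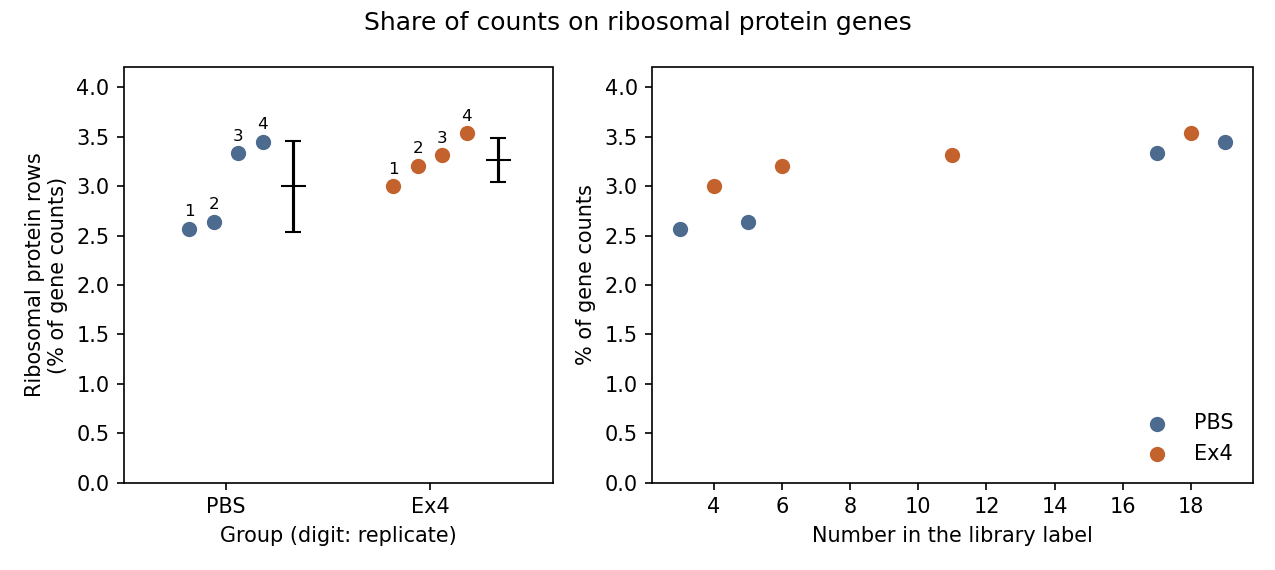
Share of gene counts on the 82 ribosomal protein rows, in percent, by group (left; one point per mouse) and against the number in the library label (right). PBS runs from 2.57% to 3.45% and Ex4 from 3.00% to 3.53%, and the 4 libraries with numbers under 10 lie below the 4 with numbers of 10 or more.

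None of the 81 members tested passed in either direction. In edgeR's quasi-likelihood test with Benjamini-Hochberg adjustment over all genes, 0 members were higher and 0 lower with Ex4, and 0.0136% of all genes were called higher and 0.0% lower. DESeq2 called 0 members, where it called 0.327% of the 14691 genes higher and 0.238% lower. It gave no adjusted p for genes including Rps4l, Rpl39l, Rpl32l and Rpl34, so these could not be called. Limma-voom also called 0 members, against 0.00681% of genes higher and 0.0% lower. At an unadjusted p under 0.05 there was 1 member, Rpl39, higher, where 3.71% of genes were higher and 3.9% lower at that level. No member had groups without overlap, which 4.95% of all genes had. The remaining member, Rpl3l, had too few counts to be tested.

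Most members had a log2 fold change slightly above 0. Their median was 0.14, with quartiles of 0.07 and 0.24, against a median of 0.02 over all genes tested. Above 0 were 70 of 81 (86.4%), and over all genes 52.9%. The 95% interval lay within a 1.5-fold change in either direction for 57 of the 81. Because members moved together across libraries, as described next, their directions are not separate pieces of evidence. The median was 0.04 without PBS 1, 0.08 without PBS 2 and 0.07 without Ex4 3, and the number below 0 was 24, 15 and 19 in turn, against 11 with all libraries. The median over all genes was 0.02 without PBS 1, 0.00418 without PBS 2 and -0.00264 without Ex4 3. Without PBS 4 the median was 0.23, with 6 below 0. The log2 fold change of each of 32 members examined singly moved by over 1.5 times when some single library was left out.

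**Figure D2:**
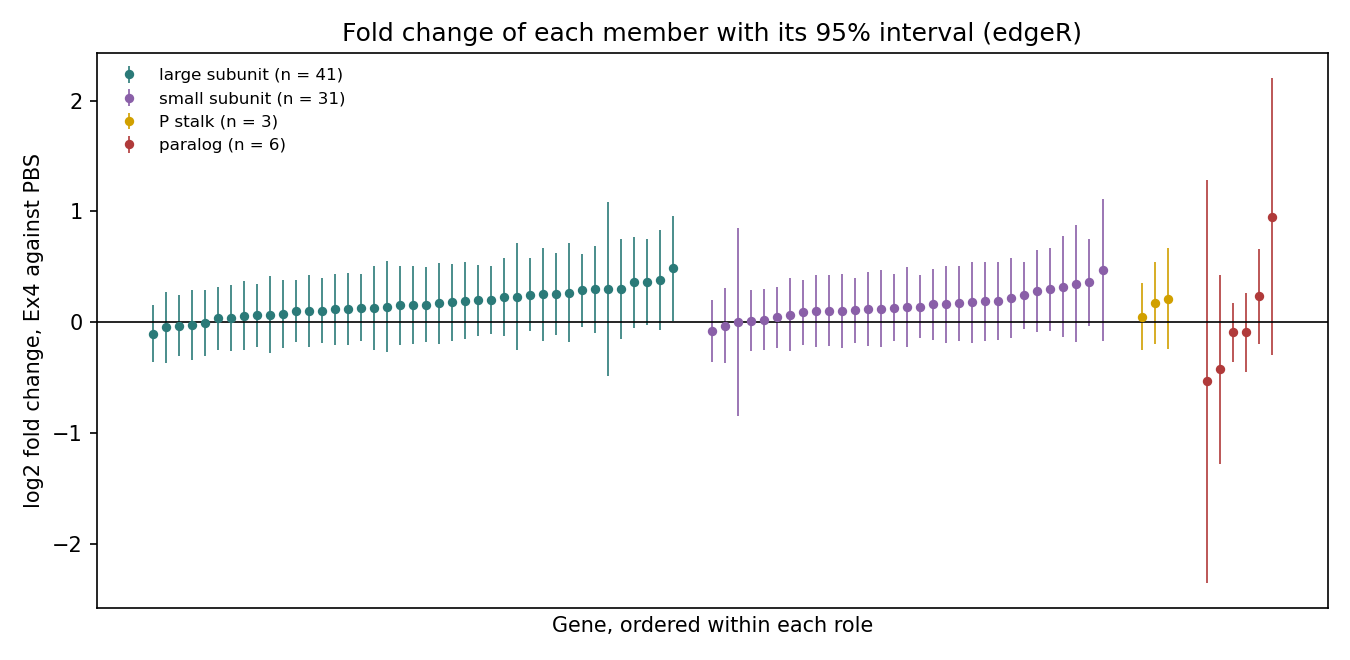
The log2 fold change (edgeR, Ex4 against PBS) of each of the 81 members tested, ordered within each role, with its 95% interval as a bar. Most points lie slightly above 0, and the interval of Rpl39 alone excludes 0 (0.01 to 0.96).

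A common pattern across individual mice was larger than the difference between the groups. The mean log2 CPM over the members was 7.45, 7.61, 7.98 and 8.12 in PBS 1 to 4 and 7.77, 7.93, 8.12 and 8.04 in Ex4 1 to 4. PBS 1 was the lowest library for 61 of 81 members (75.3%), as it was for 17.7% of all genes, and PBS 2 was the lowest for a further 16. The highest library was Ex4 3 for 36 members, PBS 4 for 32 and Ex4 4 for 11. Over the 8 libraries the median correlation between pairs of members was 0.84, and 96.3% of pairs were above 0. The same median was 0.33 among 36 other translation genes and 0.31 among 78 mitochondrial ribosomal protein genes. It was 0.82 among 6 neutrophil markers, 0.72 among 9 B and plasma cell markers and 0.59 among 19 epithelial markers. Among 14 IEL and T cell markers it was 0.26, and among 10 macrophage, monocyte and dendritic cell markers 0.25. A high median was thus not particular to ribosomal protein genes. PBS 1 also had the lowest summed level of IEL and T cell markers, 66930 CPM. Their mean log2 CPM, however, was 10.02 in PBS 1 and lowest in PBS 3, at 9.94. The part of these markers' cells in the pattern was not tested. The correlations describe genes that share the same 8 libraries.

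Each library label also carries a number whose meaning is not stated: 3, 5, 17 and 19 in PBS 1 to 4 and 4, 6, 11 and 18 in Ex4 1 to 4. The share of counts was 2.57% to 3.21% in the 4 libraries with numbers under 10 and 3.31% to 3.53% in the 4 others, without overlap. Of the members, 36 of 81 (44.4%) had every library numbered under 10 below every other, and 1.99% of all genes did. The difference in share between Ex4 and PBS was 0.50 percentage points among numbers under 10 and 0.033 among the others, with 2 libraries per group in each. The median log2 fold change was 0.28 and 0.03 in the same order, and over all genes 0.01 and 0.02. With the 2 sets of label numbers, under 10 and 10 or more, as a term in the edgeR fit, the median was 0.17. Both groups were represented on each side of the split, and its part in the differences between single mice was not tested.

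**Figure D3:**
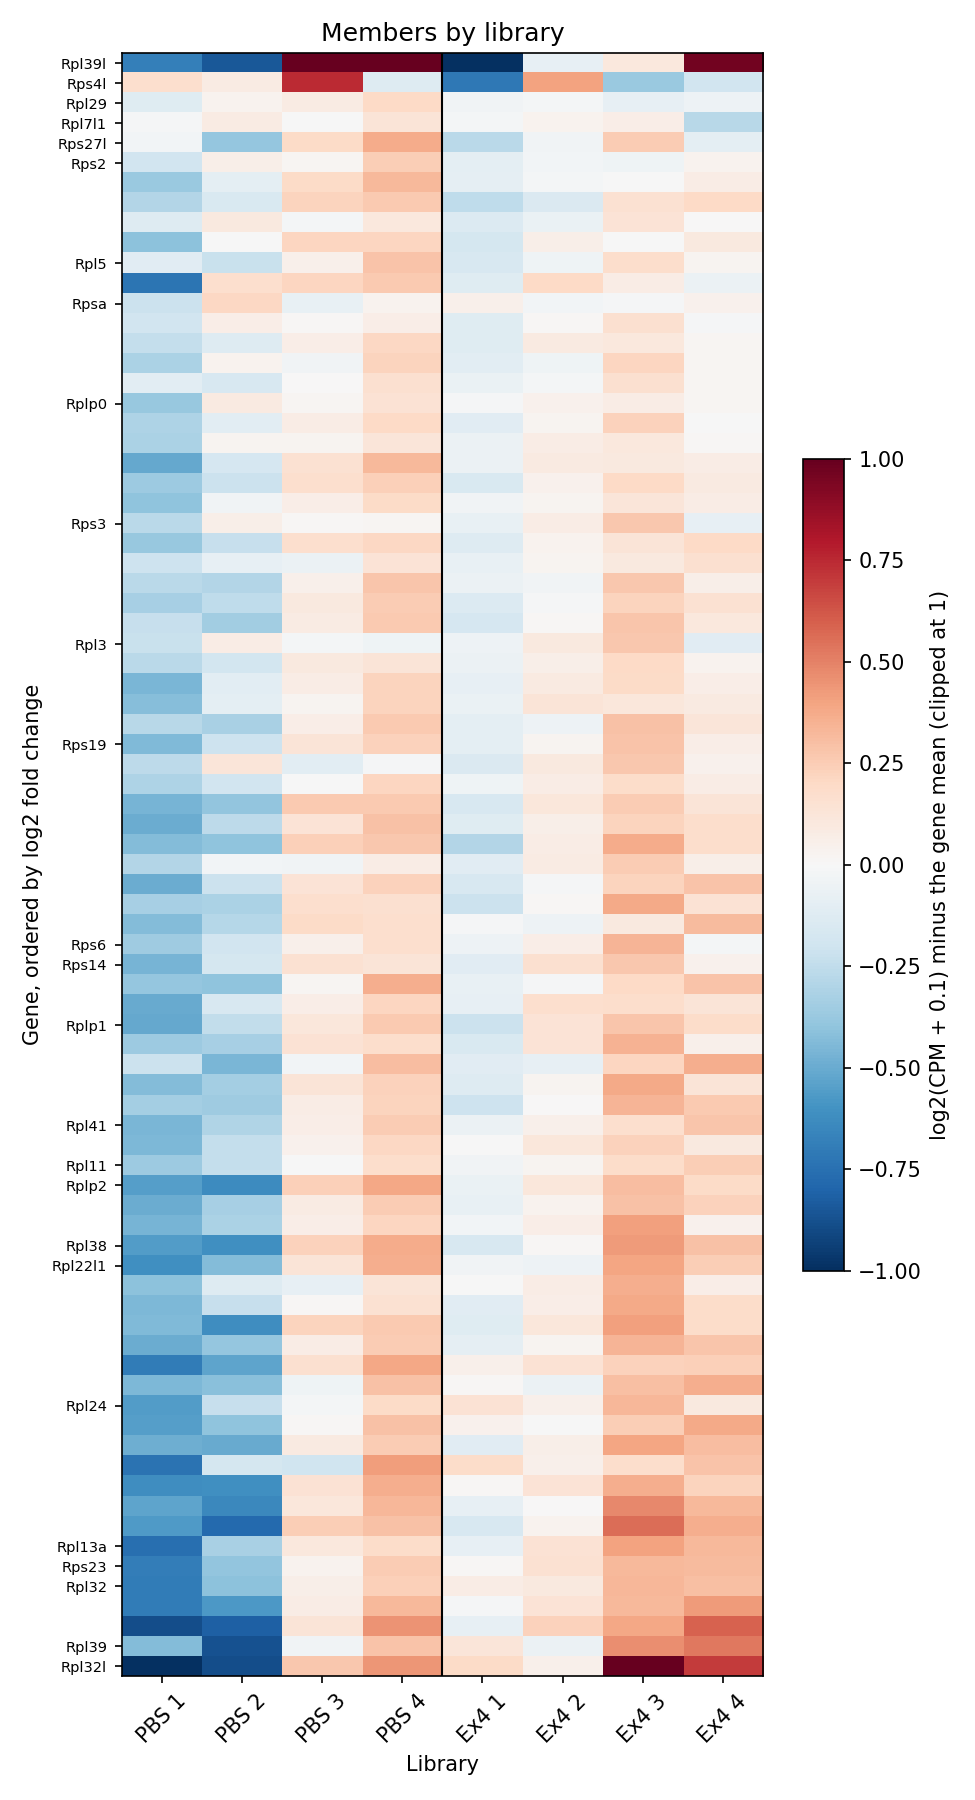
Level of each of the 81 members tested in each library, as log2 CPM (with 0.1 CPM added) relative to the gene's mean over the 8 libraries; genes are ordered by log2 fold change, some of those in the text are named, and the line separates PBS from Ex4. The columns of PBS 1 and PBS 2 are low for most genes, and those of PBS 4 and Ex4 3 are high.

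Most members followed this pattern closely, and a few did not. The correlation of a member with the mean of the others was above 0.9 for 53 of 81. It was lowest for Rps4l (-0.12), Rpl7l1 (-0.06), Rpsa (0.16), Rpl29 (0.41), Rpl3 (0.47) and Rpl4 (0.53), and Rps2 was at 0.59. Rps7 (0.995) and Rps26 (0.993) followed it most closely. Rpl4, Rps7 and Rps26 were singled out after their values were seen.

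Among large-subunit genes, Rpl39, whose short protein lines the exit tunnel for the growing peptide, had the smallest p. It was at 66.8, 49.5, 88.0 and 110.2 CPM in PBS 1 to 4 and at 98.3, 86.8, 125.0 and 130.4 CPM in Ex4 1 to 4. PBS 2 was lowest and Ex4 4 highest, and PBS 3 and PBS 4 fell within the range of Ex4. The log2 fold change was 0.49 (SE 0.22, 95% interval 0.01 to 0.96), with an unadjusted p of 0.0442 and an adjusted p of 0.636 in edgeR's quasi-likelihood test. Leaving out PBS 2 gave 0.30. The gene lies on chromosome X from 37082520 to 37085402 in GENCODE M21, on the minus strand, and the start of RefSeq used for the window above lies inside that span. Its count, like every count here, is given per gene and not per transcript.

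Rpl32, Rpl13a and Rpl24, also of the large subunit, came next in that direction. Rpl32 was at 256.5, 313.3, 432.6 and 489.0 CPM in PBS and 437.2, 445.4, 524.0 and 512.8 CPM in Ex4. PBS 1 and PBS 2 lay below all other libraries and PBS 4 lay above Ex4 1 and Ex4 2. The log2 fold change was 0.36 (SE 0.18, edgeR adjusted p = 0.678). Rpl13a, known also for a role in silencing inflammatory mRNAs apart from the ribosome, was at 252.0, 338.5, 456.9 and 480.9 CPM in PBS and 400.3, 468.8, 561.5 and 531.5 CPM in Ex4. Again PBS 1 and PBS 2 were lowest and the groups overlapped (log2 fold change 0.36, SE 0.19, edgeR adjusted p = 0.686). Rpl24, at the interface with the small subunit, had means of 136.5 ± 29.4 and 166.7 ± 14.6 CPM (SD, n = 4; log2 fold change 0.29). Without PBS 1 these 3 values were 0.21, 0.20 and 0.16.

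Rpl5 and Rpl11 enter the ribosome together with the smallest ribosomal RNA, and when unassembled they bind and inhibit MDM2, the ligase that degrades p53. Rpl5 was at 274.2, 253.3, 306.3 and 361.0 CPM in PBS and at 265.2, 287.0, 335.1 and 302.1 CPM in Ex4. Both its lowest and its highest value were in PBS, and its log2 fold change was -0.01 (SE 0.14). Rpl11 was at 187.8, 205.6, 241.7 and 274.0 CPM in PBS and 235.8, 247.3, 275.4 and 287.1 CPM in Ex4, with a log2 fold change of 0.20 (SE 0.14). Its PBS 3 and PBS 4 values lay within the range of Ex4. Sequence shared with other genes may make counts uncertain, which was not tested. Of 80 members matched to a transcript, 72 shared at least 1 exact window of 100 bases with another gene. At least 50% of windows were shared in 34 members. The share was 91.1% for Rpl5, 59.7% for Rpl11, 91.6% for Rpl10, 83.6% for Rps6, 80.1% for Rpl24 and 79.4% for Rpl3, and 0% for Rpl32, Rps3 and Rpl22.

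Further large-subunit genes had smaller values. Rpl38, needed for translation of some Hox mRNAs in the embryo, averaged 267.4 ± 93.5 CPM in PBS and 314.1 ± 57.4 CPM in Ex4 (log2 fold change 0.23). Its PBS 1 and PBS 2 values, 190.9 and 183.9 CPM, lay below the 6 others, and without PBS 2 and Ex4 3 its log2 fold change was -0.02. Rpl41, the shortest of these proteins, averaged 705.1 ± 158.5 and 807.6 ± 80.9 CPM (0.20). Rpl22, which T cell precursors require, averaged 84.6 ± 18.2 and 94.5 ± 11.2 CPM (0.16). Rpl10, a late-joining protein of the large subunit, averaged 296.5 ± 41.0 and 303.9 ± 21.5 CPM (0.04). Rpl13 averaged 1122 ± 205 and 1219 ± 75.1 CPM (0.12). Without PBS 1 the values were 0.08 for Rpl41, 0.04 for Rpl22, -0.04 for Rpl10 and 0.00385 for Rpl13.

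Rpl29, a peripheral protein of the large subunit, had the smallest p among members lower with Ex4 after Rps4l. It was at 186.7, 207.1, 214.7 and 232.3 CPM in PBS and at 197.4, 200.3, 191.1 and 195.2 CPM in Ex4. The Ex4 libraries spanned less than 10 CPM and lay inside the range of PBS, and the log2 fold change was -0.10 (SE 0.12, edgeR adjusted p = 0.898).

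In the small subunit, Rps23, which sits at the decoding center, was at 285.7, 351.7, 472.7 and 550.6 CPM in PBS and 467.3, 513.4, 578.6 and 575.8 CPM in Ex4. PBS 1 and PBS 2 lay below every Ex4 library, whereas PBS 3 and PBS 4 did not. Its log2 fold change was 0.36 (SE 0.18, edgeR adjusted p = 0.685), and 0.21 without PBS 1. The 31 small-subunit genes had a median log2 fold change of 0.14, with 29 above 0, and the 41 large-subunit genes a median of 0.15, with 36 above 0.

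Rps6 is the substrate of the S6 kinases downstream of mTORC1. It was at 425.9, 478.7, 564.0 and 611.6 CPM in PBS and 528.1, 571.0, 690.2 and 537.1 CPM in Ex4. PBS 1 and PBS 2 were lowest, Ex4 3 highest, and the groups overlapped (log2 fold change 0.16, SE 0.15). Rps14 had the highest level of the members at 1110, 1360, 1704 and 1679 CPM in PBS and 1413, 1711, 1850 and 1575 CPM in Ex4. Its log2 fold change was 0.16 (SE 0.16), with PBS 3 and PBS 4 within the range of Ex4. Rps19, the gene most often mutated in Diamond-Blackfan anemia, averaged 771.7 ± 162 CPM in PBS and 841.5 ± 95.1 CPM in Ex4 (log2 fold change 0.12, or 0.00438 without PBS 1 and 0.03 without Ex4 3). Without PBS 1 the value was 0.07 for Rps6 and 0.04 for Rps14.

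Rps27a encodes a fusion of ubiquitin with a ribosomal protein and averaged 270.4 ± 53.2 CPM in PBS and 290.7 ± 37.6 CPM in Ex4, with a log2 fold change of 0.10. Without PBS 2 its log2 fold change was -0.00021. Rps3, which lies at the mRNA entry channel, was at 585.1, 733.9, 712.0 and 713.8 CPM in PBS and 670.7, 741.7, 850.3 and 664.7 CPM in Ex4 (log2 fold change 0.09). Without PBS 1, where it was lowest, the other PBS libraries spanned 712.0 to 733.9 CPM, inside the range of Ex4. Rpsa, which also serves as a laminin receptor, was at 283.9, 379.3, 312.0 and 337.2 CPM in PBS and 340.5, 322.0, 325.5 and 339.2 CPM in Ex4. PBS 2, low for most members, was the highest library for Rpsa, and the log2 fold change was 0.02 (SE 0.13), or -0.06 without PBS 1. Rps2, at the mRNA entry channel, averaged 804.5 ± 98.2 and 762.7 ± 28.96 CPM (log2 fold change -0.08), with the Ex4 libraries inside the range of PBS.

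The P stalk recruits the translation factors that hydrolyze GTP. Its base, Rplp0, was at 771.6, 1066, 1015 and 1109 CPM in PBS and 994.8, 1033, 1057 and 1017 CPM in Ex4. All Ex4 libraries lay within the range of PBS, where PBS 1 stood lowest, and the log2 fold change was 0.05 (SE 0.14), or -0.06 without PBS 1. Rplp1 averaged 343.4 ± 80.6 and 387.0 ± 54.0 CPM (0.17). Rplp2 was at 138.1, 130.9, 239.0 and 264.1 CPM in PBS and 193.1, 219.0, 251.2 and 231.2 CPM in Ex4, with a log2 fold change of 0.21 (SE 0.21). Its PBS libraries enclosed every Ex4 value, and the log2 fold change was 0.05 without PBS 2, 0.07 without PBS 1 and 0.38 without PBS 4.

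Paralogs had no common direction: of 6 tested, 2 had a log2 fold change above 0, and their median was -0.09. Rpl22l1, a copy that can take the place of Rpl22, was at 49.3, 56.0, 82.8 and 97.2 CPM in PBS and 73.9, 73.0, 99.3 and 89.6 CPM in Ex4. It followed the pattern of the canonical members (correlation 0.98), and PBS 4 was exceeded by Ex4 3 alone. The log2 fold change was 0.24 (SE 0.20, edgeR adjusted p = 0.848), and 0.08 without PBS 1. As a percentage of Rpl22 in CPM, it was 83.0% ± 10.3 in PBS and 89.0% ± 10.8 in Ex4 (SD, n = 4).

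Rpl7l1, a nucleolar copy of Rpl7, was at 212.2, 225.6, 212.6 and 232.9 CPM in PBS and 210.6, 218.7, 223.8 and 176.4 CPM in Ex4. Ex4 4 was low and the 7 other libraries differed little, so that the log2 fold change was -0.09 (SE 0.12). Rps27l, a p53 target, averaged 110.7 ± 24.1 and 104.1 ± 16.2 CPM (log2 fold change -0.09), with the Ex4 libraries inside the range of PBS.

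The other 4 paralogs were at low levels. Mean raw counts per library were 76.1 for Rps4l, 51.9 for Rpl32l, 15.75 for Rpl39l and 11.9 for Rpl3l. Rps4l lay at 3.75, 3.53, 5.66 and 3.04 CPM in PBS and 1.99, 4.44, 2.55 and 2.90 CPM in Ex4 (log2 fold change -0.42, SE 0.40, edgeR adjusted p = 0.863). Rpl39l, known best from testis, had 7, 7, 29 and 29 counts in PBS and 2, 15, 19 and 18 counts in Ex4 (log2 fold change -0.53, SE 0.85). Leaving out PBS 4 gave -0.12 for Rpl39l and leaving out Ex4 4 gave -1.06. In both genes the groups overlapped. Rpl32l had 0.95 (SE 0.58, edgeR adjusted p = 0.751), from 0.385, 0.996, 2.33 and 2.64 CPM in PBS and 2.22, 1.99, 4.86 and 3.19 CPM in Ex4, again with PBS 3 and PBS 4 in the range of Ex4. Rpl3l, a copy of Rpl3 restricted mainly to heart and skeletal muscle, had 3, 7, 8 and 7 counts in PBS and 35, 11, 5 and 19 counts in Ex4.

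Levels between genes were compared per kilobase of transcript. Rps14 was highest at 2597 CPM per kb over all libraries, followed by Rpl41 at 1731 and Rpl13 at 1501. By CPM without length, Rps14 had a mean of 1550 and Rpl3 one of 1234. Rpl3, at the peptidyl transferase center, was at 1054, 1296, 1210 and 1195 CPM in PBS and 1188, 1315, 1479 and 1138 CPM in Ex4 (log2 fold change 0.11, SE 0.14, or 0.00992 without Ex4 3). PBS 2 was the highest PBS library for this gene, and PBS 2 to PBS 4 lay within the range of Ex4.

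A few genes of this family, constant parts of the ribosome, were close to 0 in this table. Rpl26 had 0 counts in all 8 libraries, which allows up to 0.0942 to 0.224 CPM per library at 3 counts, for counting error only. Rpl30 had 3 to 14 counts. Rps27, at 1.73 to 3.54 CPM, and Rpl34, at 2.21 to 5.06 CPM, were far below their neighbors in the ribosome. Rps27 shared 98.4% of its 100-base windows with another gene, Rpl30 53.5%, Rpl26 36.8% and Rpl34 31.0%. For each of these 4 genes 1 of the genes sharing windows had a row in the table. How the counting treated reads that fit several genes is not given in the sources used here, and its part in the low rows was not tested. Rps27 was singled out after its values were seen.

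The fold changes varied with the length of the coding sequence. Over 75 canonical members, those without paralogs, Spearman's rho between log2 fold change and coding length was -0.65 (Pearson's r -0.59). With paralogs included (79 members tested with a length) it was -0.55 (Pearson's r -0.37). Both are descriptions over genes that share 8 libraries. Over all genes tested with a length (13605) rho was 0.02, over mitochondrial ribosomal proteins (78) -0.07, and over other genes whose mean log2 CPM reached 6 (3121) it was -0.11. The 37 canonical members with up to 456 coding bases, the median over all members with a length, had a median log2 fold change of 0.21, with 37 above 0. The 38 longer ones had a median of 0.10, with 31 above 0. Rpl39 is among the short ones, with 153 coding bases, and Rpsa (885), Rpl5 (891) and Rps2 (879) are among the long ones.

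**Figure D4:**
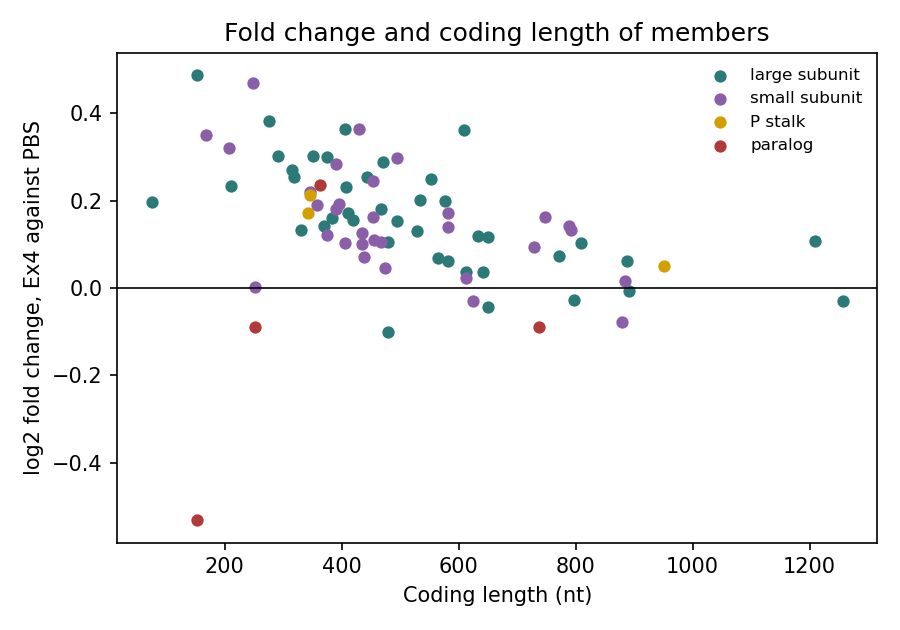
The log2 fold change (edgeR, Ex4 against PBS) of each member against its coding length in nucleotides, by role. Short genes lie higher than long ones, with Spearman's rho of -0.65 over 75 canonical members and -0.55 over 79 members with paralogs included.

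The same order was present between mice of one group. Mean log2 CPM of the short canonical members was 7.21, 7.30, 7.80 and 7.97 in PBS and 7.62, 7.75, 8.002 and 7.92 in Ex4. That of the long ones was 8.35, 8.58, 8.74 and 8.87 in PBS and 8.61, 8.73, 8.87 and 8.77 in Ex4. Between PBS 1 and PBS 4 the short genes were thus further apart than the long ones. Each library's deviation from the gene means had a rho with coding length of 0.59, 0.78, -0.42 and -0.62 in PBS and 0.00, -0.13, -0.57 and -0.62 in Ex4. PBS 1 and PBS 2 had relatively less of the short mRNAs, and PBS 3, PBS 4, Ex4 3 and Ex4 4 relatively more. The rho of the fold changes was -0.35 without PBS 2 and -0.22 without PBS 2 and Ex4 3, the pair with the fewest genes detected at equal depth. It was -0.72 among label numbers under 10 and -0.32 among the others. Other abundant genes of up to 456 coding bases (342) had a median log2 fold change of 0.04, with 59.6% above 0, and longer ones (2779) a median of -0.04, with 43.2% above 0. Mean log2 CPM of these short genes was 7.22, 7.33, 7.45 and 7.49 in PBS and 7.28, 7.48, 7.61 and 7.35 in Ex4. That of the longer ones was 7.16, 7.31, 7.15 and 7.225 in PBS and 7.18, 7.21, 7.31 and 7.06 in Ex4. PBS 1 and PBS 2 thus had relatively less of the short mRNAs there too, so this order was not particular to ribosomal protein genes.

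Relations with other features were weaker over these genes. Over canonical members Spearman's rho was -0.44 with transcript length, -0.29 with mean log2 CPM and -0.22 with GC content. Over all members it was -0.40 with transcript length (79 members), -0.18 with mean log2 CPM (81 members), 0.05 with the pyrimidine run (61 members), -0.01 with the share of windows found in other genes (79 members) and -0.15 with GC content (79 members). Rpl13a, with 14 pyrimidines, and Rpl24, with 3, had log2 fold changes of 0.36 and 0.29, while Rpl5, with 9, was at -0.01.

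Other genes with TOP mRNAs or ribosome-bound products gave no call either: 0 of 36 passed in edgeR, 20 were below 0, and their median was -0.02. EdgeR called 0.0136% of all genes higher and 0.0% lower, so 0 calls in this list was near that share. Tpt1, a TOP mRNA for a small calcium-binding protein, was at 406.3, 577.7, 662.9 and 781.4 CPM in PBS and 772.3, 750.8, 880.8 and 937.6 CPM in Ex4. PBS 4 lay within the range of Ex4, and the log2 fold change was 0.46 (SE 0.18, edgeR adjusted p = 0.556). The gene Pabpc4, whose product binds the tails of mRNAs, was at 93.4, 82.7, 87.0 and 85.8 CPM in PBS and 56.4, 62.6, 49.6 and 52.4 CPM in Ex4. Every Ex4 library lay below every PBS library, and the log2 fold change was -0.66 (SE 0.12, edgeR adjusted p = 0.249). Pabpc4 and Eif3b were the 2 of these 36 genes without overlap, which 4.95% of all genes had. Fau, which encodes a ribosomal protein fused to a ubiquitin-like protein, had a log2 fold change of 0.10, and Rack1, on the small subunit, -0.12. The elongation factor genes Eef1a1 (0.09) and Eef2 (0.08), the initiation factor genes Eif3k (0.17) and Eif3b (-0.32), Pabpc1 (0.03) and Rpl36al (-0.06) also did not pass.

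Genes of the pathway that controls these mRNAs had a median slightly below 0, where that of all genes tested was 0.02. The list includes inhibitors, such as Deptor and Eif4ebp1, so its median gives no direction for the pathway. Of 31 genes of mTORC1, S6 kinase, 4E-BP and LARP1, 0 passed in edgeR, 23 were below 0 and the median was -0.09. Over all genes 0.0136% passed and 52.9% were above 0. Other abundant genes of over 456 coding bases had a median of -0.04, with 43.2% above 0. Larp1, which binds the TOP motif, was at 190.1, 188.0, 191.3 and 189.7 CPM in PBS and at 175.5, 175.4, 174.7 and 165.9 CPM in Ex4. The groups did not overlap, and the log2 fold change was -0.13 (SE 0.11, edgeR adjusted p = 0.841). Rps6kb1, the S6 kinase gene, was at -0.19, Eif4ebp1, the cap-binding inhibitor, at -0.45, Eif4e, the cap-binding protein, at -0.32 and Rps6ka1 at -0.36. Tia1, which also binds TOP mRNAs, was at 0.21, with 46.9 to 52.9 CPM in PBS and 55.4 to 61.2 CPM in Ex4. Larp1, lower with Ex4, and Tia1, higher, were the 2 of these 31 genes without overlap, which 4.95% of all genes had. Deptor, an inhibitor of mTOR with 0.674 to 3.06 CPM, was at 1.14.

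Genes for import, chaperoning and assembly of ribosomal proteins had a median log2 fold change of -0.08. Below 0 were 23 of 33, and 0 passed in edgeR. Over all genes 0.0136% passed and 52.9% were above 0. The importins Ipo4 (-0.35) and Kpnb1 (-0.27) and the assembly kinases Riok1 (0.48) and Riok3 (0.23) had the smallest p in each direction. Among 19 genes around MDM2 and p53, 11 were below 0 and 0 passed. Pmaip1, a pro-apoptotic p53 target, was at 59.8, 117.0, 119.6 and 127.5 CPM in PBS and 160.9, 137.2, 204.6 and 144.5 CPM in Ex4, without overlap (log2 fold change 0.61, edgeR adjusted p = 0.5). Gadd45a (0.82), Phlda3 (-1.29) and Mdm4 (-0.30) did not pass. Pmaip1, higher with Ex4, and Mdm4, lower, were the 2 of these 19 genes without overlap, which 4.95% of all genes had.

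Mitochondrial ribosomal proteins, which build a separate ribosome, had a median of -0.05 with 52 of 78 below 0. In edgeR 0 of them passed, where 0.0136% of all genes did. Mrpl33 (0.35), Mrps23 (0.18), Mrps2 (-0.45) and Mrpl39 (-0.37) had the smallest p. Of 9 pseudogene rows 5 were tested, with a median of 0.17 and 0 passing, and Rplp2-ps1 and Rpl34-ps1 were at 0.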

How the data were processed

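The authors deposited whole-number, unnormalized counts per gene for 8 libraries of a stranded mRNA kit, sequenced as paired reads of 200 bp, per the labels' protocols. The submitters' processing notes list STAR 2.7.9a, DESeq2 and mm10 but assign them no role. The tool that counted reads and its gene models were not given in the sources used here. All 8 columns matched a sample, and 0 were left unused. The test was that of edgeR 4.0.16 under R 4.3.3 (filterByExpr, TMM, robust quasi-likelihood F test, Benjamini-Hochberg over 14691 genes, threshold 0.05). A trial on simulated data drew each gene independently, unlike members that move together, and its outcome is not used here. Alternatives were DESeq2 1.42.0, limma-voom (limma 3.58.1), other filters, scalings and terms, and each library left out. P-values measure the spread between these mice. Log2 CPM used a prior count of 2, and depth limits genes at a few CPM. Lengths and gene spans are those of GENCODE M21, and start windows those of RefSeq on GRCm38.p6, both on the build also called mm10. Members, lists and tests were chosen with earlier results of these data known. Named members were the 5 with the smallest p in each direction, a set fixed by role, and the 3 highest and lowest by CPM and per length. Outside the members they were a fixed set and, in each list, 2 per direction. Some named genes are not reported here. Tables and figures used Python 3.11.15.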

Additional observations from a re-analysis of the deposited data

Results flagged for a closer look

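The level of Rps3 in PBS 1 stood apart from its own group: 9.19 as log2 CPM, against 9.48 in the next library. That gap took up 0.867 of the range of the 4 PBS libraries, above Dixon's 95% limit for 4 samples. It was the only such case in 68 groups of 4 values, where chance gives about 3.4.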

How the results depend on the processing

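The number of members called was 0 in every alternative run, including a threshold of 0.1. Over all genes edgeR called 2, DESeq2 83, limma-voom 1 and edgeR without PBS 2 14. The median log2 fold change, 0.142 with a median of 0.0201 over all genes, ran from 0.0438 to 0.226 with a library left out and was 0.281 and 0.0289 within label numbers under 10 and of 10 or more. Its excess over the median of all genes was 0.022 without PBS 1 and 0.00938 among label numbers of 10 or more. The number below 0, 11 with all libraries, ran from 6 to 24 with a library left out, and was 6 among label numbers under 10, 29 among those of 10 or more and 29 without PBS 2 and Ex4 3. These last 3 settings were chosen after seeing the data. The difference in share ran from 0.123 to 0.417 percentage points with a library left out. The labels do not say whether replicate numbers pair the mice. Same-numbered libraries' deviations correlated at 0.0898, -0.0267, -0.235 and 0.144, and differently numbered ones at -0.335 to 0.361, which cannot settle it. A fit with the replicate block called 0 members, with a median of 0.166.

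Of 32 named genes tested, 20 kept their direction and 12 changed it at least once. Each of the 32 moved by over 1.5 times when some single library was left out. Leaving out a library gave -0.0926 to 0.0776 for Rpl5, -0.0571 to 0.0783 for Rpsa, -0.0617 to 0.0905 for Rplp0, -0.0416 to 0.0982 for Rpl10, -0.00021 to 0.202 for Rps27a, -0.228 to 0.011 for Rps27l and -0.00687 to 0.124 for Rps3. Rpl5 was 0.00116 in limma-voom, 0.00151 with the replicate block, 0.00385 with upper-quartile scaling and 0.000524 with a depth term. Rpsa was -0.00403 with no filter and -0.0129 with scaling that left out the ribosomal protein rows. Among label numbers under 10, Rpl5 was 0.0579, Rpsa -0.0089, Rpl29 0.00645 and Rps27l 0.0417. Among those of 10 or more, Rplp0 was -0.0411, Rplp2 -0.0677, Rps19 -0.00994, Rpl10 -0.0865 and Rpl13 -0.0327. Without PBS 2 and Ex4 3, Rplp2 was -0.00435, Rps19 -0.0125, Rps27a -0.0751, Rpl10 -0.0402 and Rpl38 -0.0219. The cause of these changes was not tested.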
